A study of Mus musculus with 165 samples.

Results

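The end of the GCSF course was compared with its start. The groups were PUER cells after 168h of OHT in GCSF (GCSF-OHT 168h, 3 libraries) and undifferentiated PUER cells kept in IL3 without OHT (3 libraries), chosen by their titles, so that the comparison rests on 6 libraries, 3.64% of the RNA-Seq libraries of the series, in 2 of its 56 groups. PUER cells are mouse myeloid progenitors that grow in IL3. They lack *Spi1*, the gene of PU.1 (*Spi1*-/-), and carry instead a PU.1-estrogen receptor fusion protein that becomes active when a ligand is added. Undifferentiated cells grew in 5 ng/ml IL3. GCSF-OHT 168h cells were moved to 10 ng/ml GCSF for 48 h and then received 100 nM OHT (4-hydroxytamoxifen), which activates the fusion, for 168 h in GCSF. Cells given GCSF for 48 h but no OHT (GCSF 0h), GCSF-OHT cells 8 h before the end (GCSF-OHT 160h) and cells kept in IL3 and given 200 nM OHT for 168 h (IL3-OHT 168h), each with 3 libraries, were used to place the endpoint. The titles of the GCSF 0h libraries name OHT, but their descriptions and the methods put them just before it was added, and the split into steps given later rests on that. All groups share the PU.1-null background and the fusion, and the line is a single one. Replicates are wells of it, so that p-values measure the spread between wells. For each gene that spread was estimated over the wells of 54 of the 56 groups, and not from the compared groups alone. The endpoint and the start differ in IL3, GCSF, OHT and time at once, each time point had its own plate, and late cells were detached with trypsin whereas undifferentiated cells were not, so that these cannot be told apart in this comparison.

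PU.1, the product of *Spi1*, is an ETS-family transcription factor that binds GGAA-containing DNA and is needed for the white blood cell lineages. GCSF acts through its receptor *Csf3r* to drive the growth and maturation of neutrophils. Maturing neutrophils make their granules in order: primary granules hold myeloperoxidase and serine proteases, secondary granules hold lipocalin and lactoferrin, and tertiary granules hold gelatinase, while receptors for chemoattractants, antibodies and microbial products and the NADPH oxidase that makes superoxide appear toward the end.

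The 6 libraries held 16894326 to 25591964 reads on genes and 15576 to 17307 genes with at least 1 read. Levels are given as the normalized count of each library, the reads on a gene divided by the size factor of the library, with no division by transcript length. A floor of 3 reads corresponded to a normalized count of 2.57 to 3.93, and intervals and floors cover counting error only. The lowest correlation between replicates was 0.9906. *Spi1*, which includes reads from the fusion transcript, was at 10267, 9905 and 9799 in undifferentiated cells and at 11004, 10728 and 11631 at GCSF-OHT 168h. The groups did not overlap, yet the log2 fold change of 0.15 (SE 0.05, adjusted p = 0.0034) did not reach the fold threshold.

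Of 17414 genes tested with limma, 2705 were called higher at GCSF-OHT 168h and 4102 lower. A call needed a Benjamini-Hochberg adjusted p below 0.05 and a log2 fold change beyond 0.58 in size. These are 15.5% and 23.6% of the genes tested, or 39.1% in both directions, the background against which the gene lists that follow are read. A log2 fold change here is a difference of log2(normalized count + 1), which understates the change of genes with few reads. Falls were more frequent than rises at moderate size, with 3028 genes lower and 1468 higher by more than 1 on the log2 scale, whereas at more than 5 the counts were 54 lower and 55 higher. The median log2 fold change over all genes tested was -0.11, but 0.03 over the 9962 genes used below to compare settings. Over 10 other settings, 2841 to 4324 genes were lower and 2447 to 2995 higher, so that the size of the excess of falls depends on the setting. Undifferentiated libraries also held more detected genes, 16806 to 17307 against 15576 to 16128 at GCSF-OHT 168h. Of the genes called higher, 850 (31.4%) had their highest mean of the whole GCSF course at 152h to 168h, against 11.8% of all genes tested, and of those called lower, 3073 (74.9%) were highest in undifferentiated cells, against 26.8%. The undifferentiated and 168h means behind the calls also enter these extremes, and all genes tested include the called ones. Both contrasts are therefore partly fixed by the selection and are descriptions only. In a bulk sample, fewer cells of a type and less RNA per cell cannot be told apart.

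**Figure D1:**
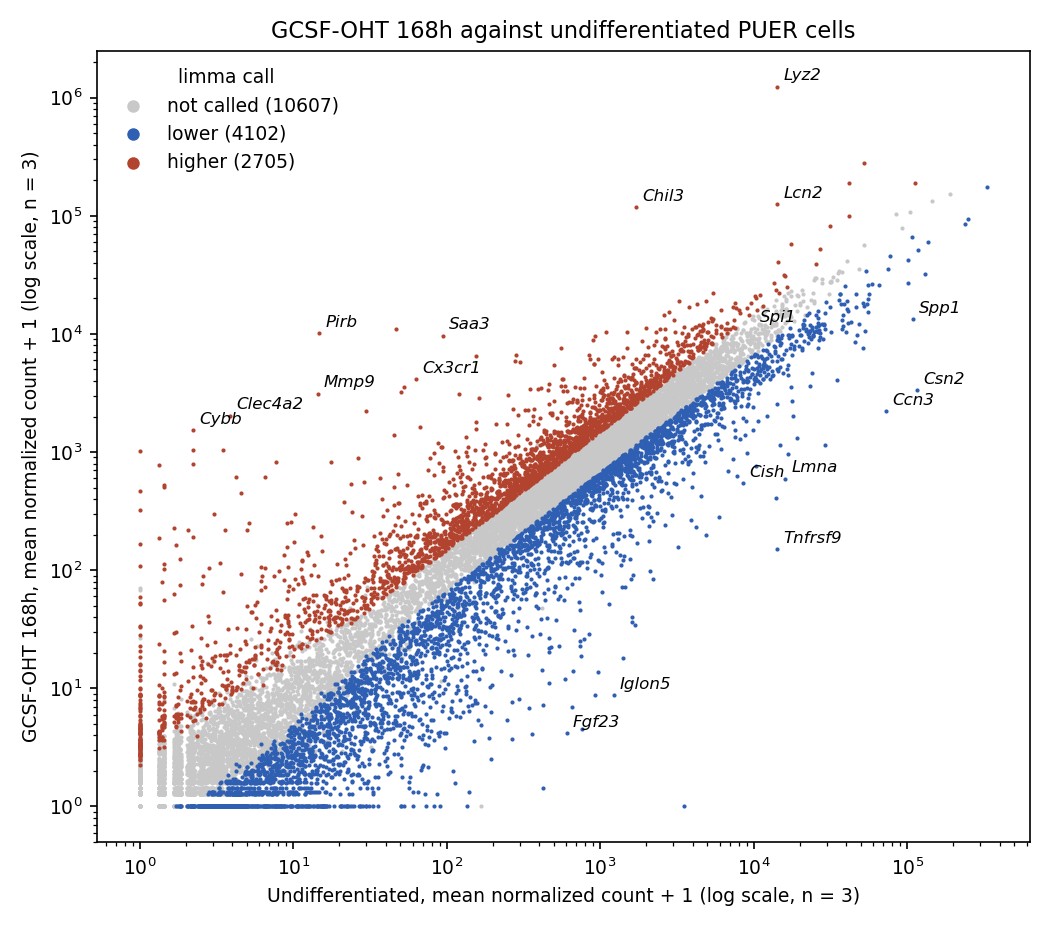
Mean normalized count + 1 of each tested gene in undifferentiated cells (horizontal axis, log scale) and at GCSF-OHT 168h (vertical axis, log scale), 3 libraries a group, coloured by the limma call. *Lyz2* lies highest at 1237745 normalized counts, *Pirb*, *Cybb* and *Clec4a2* rise from near the left edge, and *Tnfrsf9*, *Iglon5* and *Fgf23* lie far below the diagonal.

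Among the genes with the highest fold changes were cell-surface receptors of myeloid cells that were nearly absent at the start. *Pirb* (chr7:3711409-3720391, GRCm38), the paired immunoglobulin-like receptor B that carries inhibitory motifs and damps integrin and Toll-like receptor signals, was at 24.9, 8.18 and 8.27 in undifferentiated cells and at 9833, 9891 and 10756 at GCSF-OHT 168h, a log2 fold change of 9.61 (SE 0.14, adjusted p = 2.09e-90). *Clec4a2*, an inhibitory C-type lectin receptor, went from 6.54, 2.05 and 0 to 1899, 2071 and 2143, a log2 fold change of 9.48 (SE 0.27, adjusted p = 1.63e-60). In both genes every library of the endpoint lay far above every library of the start. *Clec12a*, another inhibitory lectin and a marker of granulocytes and monocytes, had 3 reads in the 3 undifferentiated libraries together and 2343 at GCSF-OHT 168h, a ratio of 685 (exact 95% interval 234.01 to 3323). *Fpr1*, the receptor for formylated bacterial peptides, had 1 read at the start and 397, 440.7 and 664 normalized counts at the end. *Tyrobp* (DAP12), a signalling adaptor of other myeloid receptors such as *Clec5a*, had 3 reads at the start and 202.7, 182.6 and 270.4 normalized counts at the end.

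*Cybb* (chrX:9435252-9487771, GRCm38) encodes gp91phox, the catalytic subunit of the NADPH oxidase. Its values were 1.31, 0 and 2.36 in undifferentiated cells and 1304, 1367 and 1922 at GCSF-OHT 168h, a ratio of reads of 1349.9 (exact 95% interval 462 to 6548). The third library of the endpoint was the highest and all 3 lay far above the start. The regulatory subunit *Ncf4* (p40phox) rose from 16.7 ± 6.81 to 831 ± 79.2 (SD, n = 3), and *Ncf1* (p47phox) and *Rac2* rose less, by 0.73 and 0.71 on the log2 scale. *Cyba* at 0.38 and *Rac1* at 0.20 did not pass the fold threshold. Of 7 oxidase genes, 4 were called higher and 0 lower.

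Of 2505 tested genes with 3 reads or fewer in every undifferentiated library, 22 had a mean of at least 100 normalized counts at the endpoint. Several are members of receptor families whose copies are so alike that reads may be split between them, and their separate values are therefore uncertain. *Gm5150*, a SIRP-beta-like gene, had 0 reads at the start and 863, 1011 and 1162 normalized counts at the end, at least 288-fold higher with the start set at 3 reads per library. The paired receptor genes *Gm15922* and *Gm14548* had 3 and 0 reads at the start and 1036 ± 127.95 and 465 ± 44.8 normalized counts at the end. *Sla*, an adaptor that dampens receptor signalling, had 1 read at the start and 524 ± 140.03 normalized counts at the end. *Cyp2a5*, a cytochrome P450 best known from liver and closely similar to *Cyp2a4*, had 1 read at the start and 769, 778 and 766 normalized counts at the end.

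The promoters of some of the genes with the strongest changes are shown with matches to short motifs. Sequences are those of RefSeq on GRCm38.p6, the 250 bases before the annotated start, 5′ to 3′. In *Pirb*, on the minus strand at chr7:3720383-3720632, and in *Chil3*, on the minus strand at chr3:106167565-106167814, capitals mark matches to GAGGAA or AGGAAGTG, both of which hold the GGAA core bound by ETS factors, on either strand. In *Csn2* (beta-casein), on the minus strand at chr5:87699426-87699675, capitals mark only a match to TTCNNNGAA, the palindrome bound by STAT factors, which was added to the search after values had been seen.
Pirb: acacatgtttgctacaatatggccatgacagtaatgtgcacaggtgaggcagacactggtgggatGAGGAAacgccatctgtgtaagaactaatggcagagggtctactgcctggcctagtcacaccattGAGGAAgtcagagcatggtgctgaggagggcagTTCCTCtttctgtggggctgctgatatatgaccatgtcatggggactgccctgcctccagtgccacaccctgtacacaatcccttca
Chil3: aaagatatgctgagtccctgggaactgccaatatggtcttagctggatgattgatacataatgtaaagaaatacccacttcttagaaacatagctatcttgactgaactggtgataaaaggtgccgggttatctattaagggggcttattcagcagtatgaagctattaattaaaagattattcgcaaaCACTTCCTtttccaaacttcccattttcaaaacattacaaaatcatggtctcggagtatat
Csn2: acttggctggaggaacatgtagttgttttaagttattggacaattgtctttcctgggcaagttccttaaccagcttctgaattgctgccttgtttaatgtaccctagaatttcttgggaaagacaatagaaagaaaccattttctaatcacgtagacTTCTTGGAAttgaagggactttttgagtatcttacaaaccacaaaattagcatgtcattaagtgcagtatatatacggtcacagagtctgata
*Pirb* held 3 matches to GAGGAA, of which the nearest begin 120 and 87 bases before the start, *Chil3* a match to AGGAAGTG at 61 bases, and *Csn2* a match to TTCNNNGAA at 93 bases. These 3 were picked from 10 promoters looked at one by one. *Lyz2* held no match to any of the 7 motifs, and *Cybb*, *Clec4a2* and *S100a9* none to GAGGAA or AGGAAGTG, whereas *Csn2*, which fell, also held GAGGAA, further from its start and left in lower case. TTCNNNGAA was found as well in *Chil3* and *Clec4a2*, which rose, and in *Fgf23*, which fell, but not in *Cish*. Such matches are common. GAGGAA, on either strand, was found in 28.1% of 2581 promoters of genes called higher, 27.3% of 3450 of genes called lower and 26.9% of 14706 of all tested genes with a promoter in the table (11654 genes). AGGAAGTG was found in 5.31%, 3.77% and 4.32%, the C/EBP core TTGCNNAA in 10.4%, 8.78% and 9.05%, and TTCNNNGAA in 8.72%, 6.09% and 7.05%. The E-box CACGTG (10.03%, 9.04% and 9.27%), CCAAT (38.3%, 37.4% and 37.9%) and TTTGAA (14.8%, 12.1% and 12.9%) gave shares for higher, lower and all tested genes in that order. These shares cover 300 bases around each start and are descriptions, with no test.

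Measured in reads, the largest gain was in lysozyme. *Lyz2* (chr10:117277331-117282321, GRCm38), which encodes lysozyme M, the muramidase of neutrophil and macrophage granules, was at 14397, 14347 and 13775 in undifferentiated cells and at 1214534, 1235667 and 1263032 at GCSF-OHT 168h, a log2 fold change of 6.45 (SE 0.06, adjusted p = 2e-111). It took 0.0609 ± 0.00149% (SD, n = 3) of the reads at the start and 5.64 ± 0.122% at the end. *Lyz1*, a closely similar neighbour whose reads the counting could split with *Lyz2*, was at 1042 ± 71.6 at the end. The 10 genes with the largest rises in normalized count were *Lyz2*, *S100a9*, *S100a8*, *Chil3*, *Lcn2*, *Fth1*, *Cd177*, *C3*, *Hp* and *Csf2rb*, and together they took 1.47% ± 0.0193 of the reads at the start and 11.02% ± 0.202 at the end.

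Most of these encode proteins that neutrophils store or secrete. *S100a8* and *S100a9*, the subunits of the metal-binding calprotectin, stood at 41511 ± 3694 and 52666 ± 1845 at the start and at 190483 ± 6372 and 278296 ± 11689 at the end. *Chil3* (Ym1), a chitinase-like lectin, was at 1626, 1776 and 1711 and then at 115651, 119299.7 and 122079, a log2 fold change of 6.13 (SE 0.08, adjusted p = 5.62e-95). *Lcn2* (lipocalin 2), which captures bacterial siderophores, was at 14644, 14724 and 13189 and then at 121589, 130571 and 123288, a log2 fold change of 3.14 (SE 0.08, adjusted p = 1.33e-66). *C3*, the central complement component, rose from 31204 ± 391 to 82087 ± 1744, *Hp* (haptoglobin) from 17439.5 ± 207.8 to 57219 ± 1574, and *Cd177*, a neutrophil surface glycoprotein, from 42034 ± 539 to 99612 ± 1438. *Csf2rb*, the signalling subunit shared by the IL3, IL5 and GM-CSF receptors, rose from 14412 ± 561 to 40815 ± 706, and its close copy *Csf2rb2* from 2605 ± 50.9 to 14500.2 ± 577. The ferritin subunits went apart. The heavy chain *Fth1* rose from 112012 ± 2329 to 189795 ± 12214, while the light chain *Ftl1* fell from 333019.6 ± 7645 to 175196 ± 5836.

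**Figure D2:**
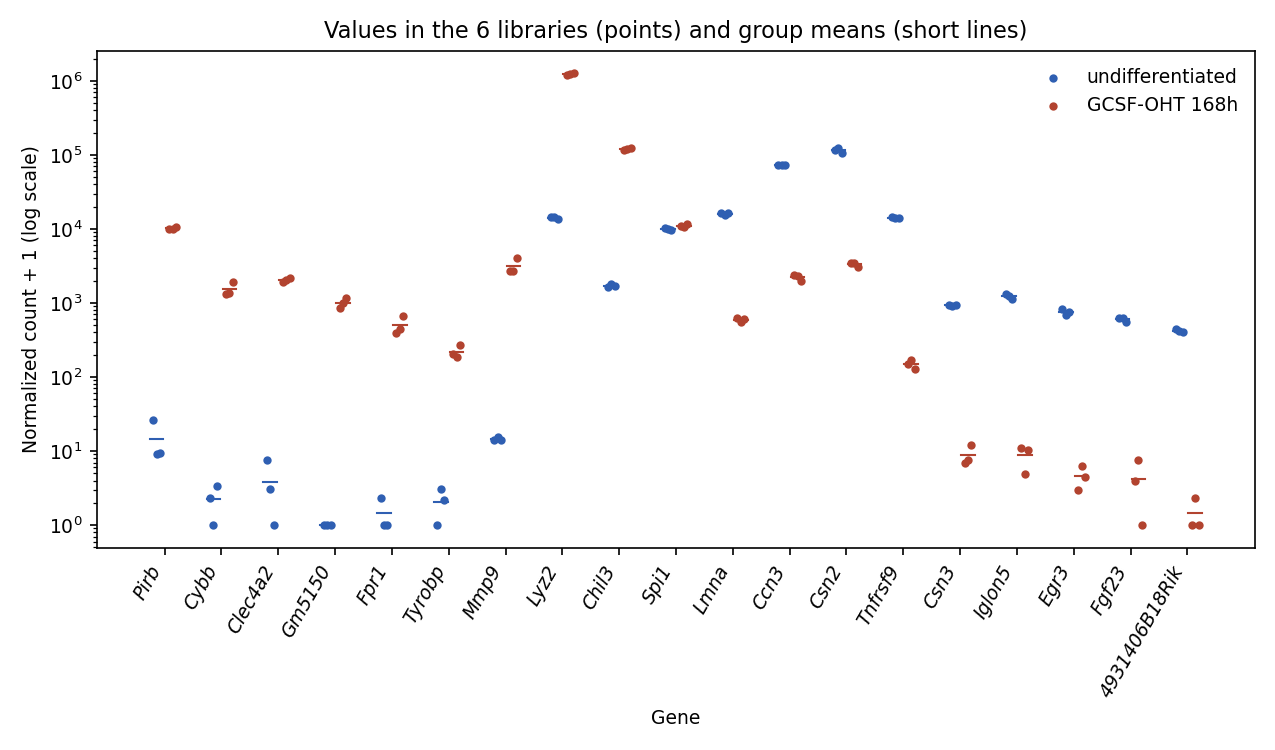
Normalized count + 1 (log scale) of 19 genes in the 3 undifferentiated (blue) and 3 GCSF-OHT 168h (red) libraries, with short lines at the group means. For *Spi1* the groups lie side by side, at 9799 to 10267 and 10728 to 11631, whereas *Pirb*, *Cybb* and *Clec4a2* on the left and *Csn3*, *Egr3* and *Fgf23* on the right are far apart.

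The granule classes moved differently. Of 14 secondary granule genes, 10 were higher and 1 was lower, with a median log2 fold change of 2.06. Its members spread widely. *Lcn2* was given above. *Ltf* (lactoferrin) rose to 56.5 ± 3.98 from 8.07 ± 3.38, *Ngp* was at 40548 ± 334 and 41096 ± 3964 and *Camp* (cathelicidin) at 3864 ± 90.7 and 3148 ± 324, the latter pair of genes without a call. *Ly6g*, a surface marker of mature mouse neutrophils outside the list, was at 22.3 ± 4.57 and 29.3 ± 7.33, also without a call. The peptidoglycan recognition protein *Pglyrp1* was the member that fell, from 4389 ± 309.9 to 1149 ± 13.1.

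Of 14 tertiary granule and cytosolic neutrophil genes, 9 were higher and 4 lower. *Mmp9* (gelatinase B) was at 13.1, 14.3 and 12.999 and then at 2679, 2681 and 4000.1, a log2 fold change of 7.73 (SE 0.20, adjusted p = 1.16e-65). The third endpoint library was the highest, and no endpoint library came near the starting ones. *Retnlg*, a resistin-like peptide of neutrophils, rose from 923 ± 119.1 to 9558 ± 544. *Cd33*, a sialic acid-binding receptor, fell from 3193 ± 180.5 to 155.9 ± 18.9 and the metalloprotease *Adam8* from 37588 ± 1293 to 11105 ± 789.

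Primary granule genes split, 5 higher and 4 lower of 11 tested. *Mpo* (myeloperoxidase) was at 3775 ± 174.04 at the start and 17018 ± 2119.6 at the end, below its highest mean of the GCSF course, 70881 ± 10114 at 80h. *Ctsc*, the protease that activates the granule serine proteases, rose from 9.23 ± 1.39 to 83.8 ± 8.57. The serine proteases themselves did not follow. *Elane* (neutrophil elastase) was at 108842, 107315 and 108229 and then at 70206, 67999 and 60187, a log2 fold change of -0.71 (SE 0.07, adjusted p = 3.33e-18), and *Ctsg* (cathepsin G) at 37176, 37848 and 35434 and then at 17927, 18469.6 and 17796, a log2 fold change of -1.03 (SE 0.04, adjusted p = 6.53e-44). In both, each endpoint library lay below each starting library. *Prtn3* (proteinase 3) was at 35822 ± 2274 and 33789 ± 607 without a call, and *Srgn* (serglycin), the proteoglycan that packs the proteases, fell from 17383 ± 510.5 to 3572 ± 133.1.

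Receptors mostly rose. Of 15 inhibitory and activating myeloid receptors, 13 were higher and 1 lower, with a median log2 fold change of 2.65, or 2.00 with genes nearly absent at the start set at their ratio or bound. *Sirpa*, the inhibitory receptor for CD47, rose from 4660.1 ± 11.9 to 10927 ± 281 and the inhibitory *Siglece* from 11.4 ± 5.86 to 133.02 ± 38.9, while the activating *Trem1* fell from 5568 ± 137.4 to 1424 ± 16.7. Among 14 chemoattractant receptors 8 were higher and 3 lower. *Cxcr2*, the receptor for neutrophil-attracting chemokines, rose from 390.1 ± 18.3 to 3398 ± 186.97, and *Cx3cr1*, the fractalkine receptor, from 61.9 ± 1.77 to 4167 ± 384. The receptors for the complement fragment C5a fell, *C5ar1* from 14440.0 ± 604 to 4999 ± 81.05 and *C5ar2* from 3106 ± 162.8 to 537 ± 22.2.

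Of 23 pattern recognition receptors and adaptors, 13 were higher and 3 lower. *Clec5a*, a DAP12-coupled lectin, rose from 3272 ± 196.5 to 18959 ± 816, *Tlr13*, a receptor for bacterial ribosomal RNA, from 341 ± 14.4 to 1697 ± 122.4, and *Tlr8* from 3 reads in 3 libraries to 190.5 ± 40.3 normalized counts. *Cd14*, the lipopolysaccharide co-receptor, fell from 7861 ± 52.4 to 3303 ± 222.6. Of 11 Fc receptors and adaptors, 7 were higher and 2 lower. *Fcgr3* rose from 1161 ± 106.8 to 2887 ± 104.1 and the kinase *Lyn* from 1701 ± 35.8 to 6085 ± 285. *Syk*, the kinase that acts downstream of these receptors, had 0 reads in the 3 undifferentiated libraries and 50.2, 46.9 and 57.3 normalized counts at the endpoint. The adaptor *Fcer1g*, the common gamma chain, fell from 219.6 ± 22.1 to 128.02 ± 6.25.

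Cytokine receptors numbered 11 higher and 4 lower of 22. The GCSF receptor *Csf3r* was at 1022, 1173 and 1103 and then at 10305, 10245 and 10720.2, a log2 fold change of 3.25 (SE 0.06, adjusted p = 4.54e-77). *Il1r2*, the decoy receptor for IL1, was at 61.5, 66.5 and 70.9 and then at 1548, 1663 and 1639, a log2 fold change of 4.59 (SE 0.14, adjusted p = 4e-57). *Il17ra*, the IL17 receptor, rose from 2790.2 ± 82.9 to 15388 ± 1008, with endpoint libraries at 14803 or more and starting libraries at 2866 or less. Of 15 leukocyte adhesion molecules, 5 were higher and 2 lower, among the latter *Itgb1*, which fell from 11969 ± 691 to 7271 ± 411. The beta2 integrin chain *Itgb2* was at 27767 ± 635 and 27195 ± 380.5, without a call.

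Among 34 myeloid transcription factors, 9 were higher and 7 lower. *Cebpd* (C/EBPδ) was at 895, 771 and 919 and then at 6236, 6040.0 and 6238, a log2 fold change of 2.84 (SE 0.10, adjusted p = 7.24e-53). *Irf1* rose from 278 ± 8.01 to 1111 ± 40.4 and *Stat3*, which relays the GCSF signal, from 2242 ± 9.36 to 6074 ± 214.9. *Cebpa* was at 20018 ± 1703 and 17544 ± 613, *Cebpb* at 10863 ± 1066 and 9299.6 ± 206.6, and *Cebpe*, needed for secondary granule genes, at 881 ± 48.7 and 1198 ± 95.3, none of them called. *Egr3*, an immediate-early zinc finger factor, was at 816, 691 and 763 and then at 1.97, 5.22 and 3.42, a log2 fold change of -7.45 (SE 0.57, adjusted p = 4.07e-23), and *Fosb*, an AP-1 subunit, fell from 10336 ± 138.5 to 762 ± 174.4. Of 22 progenitor genes, 7 were higher and 7 lower. *Lyl1* rose from 153.8 ± 13.5 to 1813 ± 43.6, *Ikzf1* (Ikaros) from 916 ± 67.9 to 5541 ± 359 and *Myb*, a factor of proliferating progenitors, from 1626 ± 21.3 to 4578 ± 113.9, whereas *Myc* fell from 4129 ± 63.9 to 2002 ± 77.02.

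The largest falls in normalized count were in housekeeping and secreted products. They were *Ftl1*, *Gapdh*, *Eef1a1*, *Csn2*, *Eef2*, *Spp1*, *Eno1*, *Plec*, *Ccn3* and *Gpi1*, which took 6.91% ± 0.0502 (SD, n = 3) of the reads at the start and 2.48% ± 0.0896 at the end. *Csn2*, a milk casein and a classical STAT5 target, was at 116032, 125132 and 106198 in undifferentiated cells and at 3508, 3444 and 3039 at GCSF-OHT 168h, a log2 fold change of -5.12 (SE 0.09, adjusted p = 4.43e-83). A second casein, *Csn3*, was at 936, 909 and 941 and then at 5.90, 6.52 and 11.1, a log2 fold change of -6.76 (SE 0.21, adjusted p = 5.52e-56). *Ccn3*, a secreted matricellular protein, was at 72597, 72574 and 73294 and then at 2354, 2296 and 1989, a log2 fold change of -5.04 (SE 0.07, adjusted p = 2.09e-90). *Spp1* (osteopontin) fell from 109052 ± 3612 to 13347 ± 202.99, the cytolinker *Plec* (plectin) from 101253 ± 5438 to 27180.1 ± 1692, and the translation elongation factors *Eef1a1* and *Eef2* from 239851 ± 7682 and 131022 ± 1954 to 85739.9 ± 4218 and 31874 ± 1022.

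The lowest fold changes included further growth factors and receptors. *Fgf23*, a hormone-like fibroblast growth factor, was at 635, 625 and 549 and then at 2.95, 6.52 and 0, a log2 fold change of -7.60 (SE 0.45, adjusted p = 2.5e-31). *Tnfrsf9* (4-1BB), a costimulatory receptor, was at 14343, 14149 and 13916 and then at 148.6, 170.8 and 129.2, a log2 fold change of -6.56 (SE 0.14, adjusted p = 1.4e-74). *Hbegf*, a ligand of the EGF receptor, fell from 650.3 ± 20.6 to 5.95 ± 1.53, the ephrin receptor *Epha2* from 357 ± 11.2 to 3.11 ± 3.00, *Iglon5*, an immunoglobulin-fold adhesion protein, from 1222 ± 92.4 to 7.72 ± 3.31, and the ubiquitin ligase *Rnf183* from 266 ± 29.6 to 2.74 ± 3.38. Without a limit on the mean, genes with 3 reads or fewer in every library of only 1 group numbered 591 at the start and 1403 at the end. Of 3317 tested genes that low in every endpoint library, 8 had a mean of at least 100 at the start. Among them, the zinc finger gene *4931406B18Rik* had 439.6, 419 and 408 normalized counts at the start and 1 read at the end, and *Igsf9*, an immunoglobulin superfamily member, fell from 192.9 ± 38.5 to 1.51 ± 1.34. The processed copy *Gm10359* had 5519, 4993 and 0 at the start, so that 1 library lacked it, and 0 reads at the end; its call was lost in 5 of the 6 omissions of a library and without a filter on low values.

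The feedback genes of cytokine signalling fell together. Of 15, 13 were lower and 1 higher, with a median log2 fold change of -1.42. *Cish*, which restrains STAT5 signals, was at 8775, 8538 and 8283 and then at 589, 535 and 499, a log2 fold change of -3.98 (SE 0.08, adjusted p = 4.18e-76). *Socs1* fell from 517 ± 22.7 to 37.2 ± 1.00 and *Socs2* from 1335 ± 14.8 to 203.6 ± 22.96, while *Socs3*, which restrains the GCSF receptor, fell less, from 17102 ± 364 to 9152 ± 332. The MAP kinase phosphatase *Dusp4* was at 705, 645 and 670.0 and then at 35.4, 33.9 and 21.4. The survival kinase *Pim1* was the exception and rose from 4861 ± 210.5 to 19160.1 ± 535. Of 19 cytokines and chemokines tested, 11 were lower and 3 higher. *Cxcl3*, a neutrophil attractant, fell from 844 ± 45.3 to 27.7 ± 4.79, *Osm* (oncostatin M) from 1291 ± 49.9 to 203.9 ± 5.10 and *Tgfb1* from 10413 ± 249.7 to 5838 ± 79.6, whereas *Tnf* rose from 248.6 ± 14.8 to 578 ± 38.2.

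**Figure D3:**
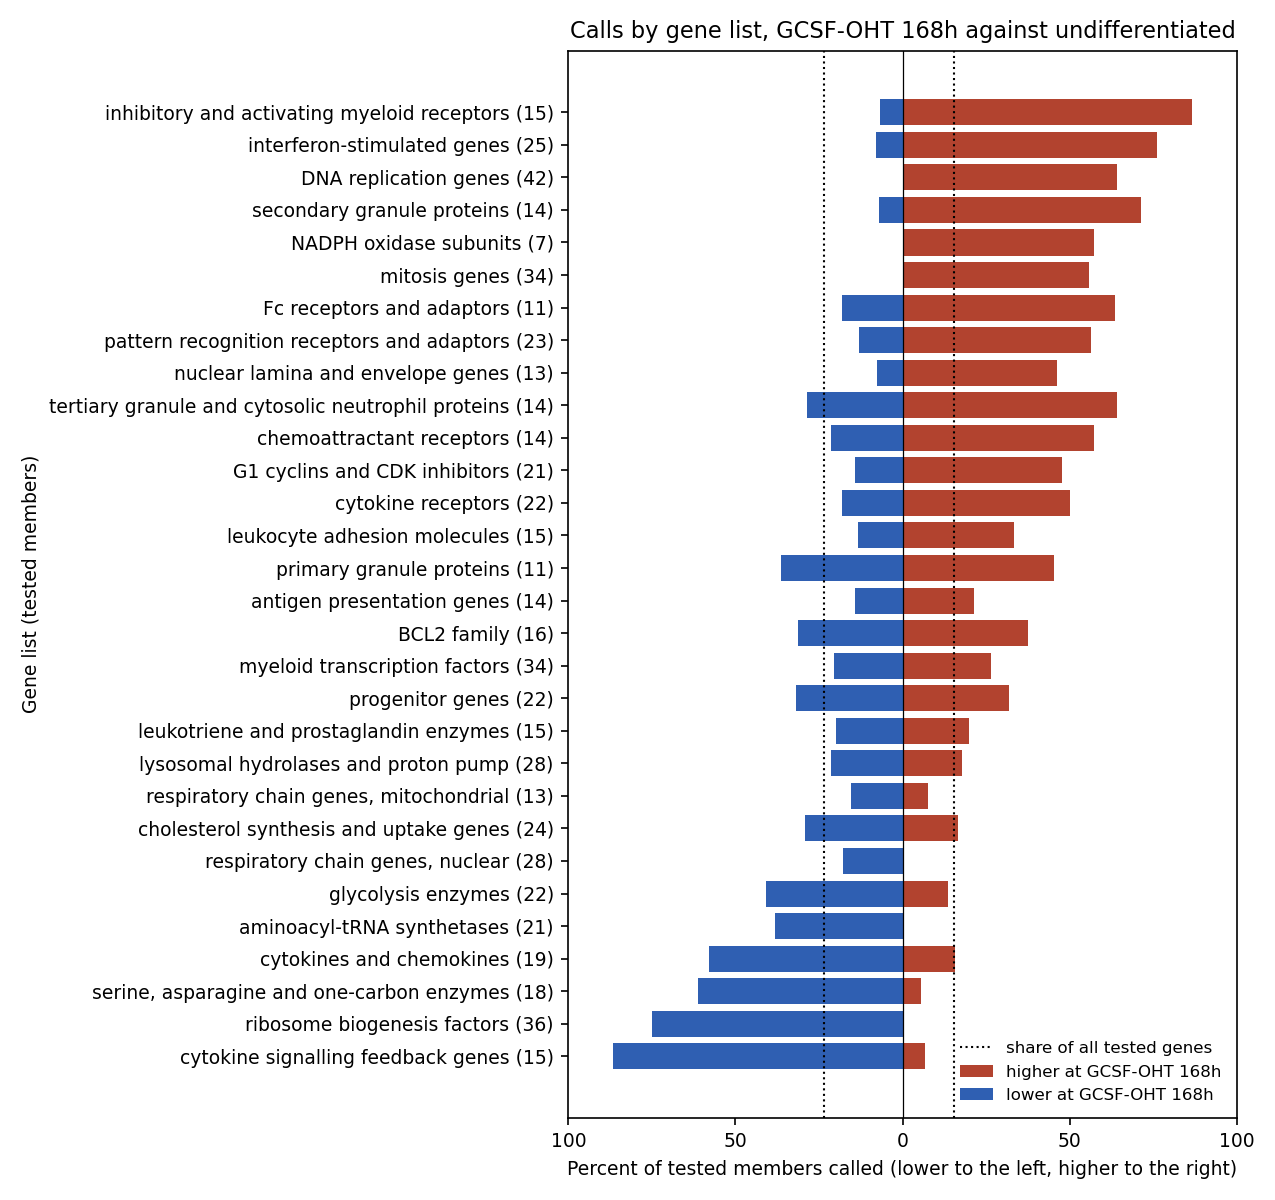
Percent of the tested members of each of 30 gene lists called higher (red, to the right) or lower (blue, to the left) at GCSF-OHT 168h, with dotted lines at the 15.5% and 23.6% of all tested genes. Inhibitory and activating myeloid receptors, interferon-stimulated genes and DNA replication genes stand at the top, and ribosome biogenesis factors and cytokine signalling feedback genes at the bottom.

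Genes of cell division were higher at the end than at the start. Of 42 DNA replication genes 27 were higher and 0 lower, and of 34 mitosis genes 19 were higher and 0 lower, both with a median log2 fold change of 0.66. *Mki67*, the proliferation antigen Ki-67, was at 3634, 3646 and 3356 and then at 8775, 9016 and 8219, a log2 fold change of 1.29 (SE 0.09, adjusted p = 1.82e-27). *Prim1*, a DNA primase subunit, rose from 406 ± 36.9 to 1287 ± 55.7, the helicase subunit *Mcm3* from 1579 ± 51.4 to 3349 ± 16.5 and the topoisomerase *Top2a* from 2903 ± 171.5 to 6475 ± 406. *Pcna* at 4041 ± 267 and 4149 ± 70.2 and *Aurka* at 638 ± 29.8 and 605 ± 17.8 were not called.

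Regulators of entry into the cycle went both ways. *E2f2* was at 334, 262 and 255.2 and then at 6762, 6332 and 6878, a log2 fold change of 4.56 (SE 0.08, adjusted p = 6.26e-80). *Ccnd2* (cyclin D2) fell from 14450.3 ± 225.3 to 4811 ± 125.7 and the CDK inhibitor *Cdkn1a* (p21) from 14613 ± 235.9 to 8720.1 ± 635, while the inhibitors *Cdkn1b* (p27) and *Cdkn2d* (p19) rose from 592 ± 23.7 and 367 ± 40.6 to 3619 ± 318 and 2032 ± 52.2. Of 13 nuclear lamina and envelope genes, 6 were higher and 1 was lower. That gene was *Lmna*, which encodes lamins A and C, at 16341, 15472 and 16399.8 and then at 627, 561 and 601, a log2 fold change of -4.75 (SE 0.07, adjusted p = 2.61e-88). *Lbr*, the lamin B receptor needed for the lobed neutrophil nucleus, rose from 3371 ± 152.1 to 7441 ± 269.8.

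Genes of ribosome production were lower. Of 36 ribosome biogenesis factors 27 were lower and 0 higher, with a median log2 fold change of -0.69. *Rrp12* was at 1556, 1638 and 1678 and then at 351, 395 and 419, a log2 fold change of -2.06 (SE 0.08, adjusted p = 1.5e-49), and the nucleolar proteins *Npm1* and *Ncl* fell from 12201 ± 997 and 19718 ± 1167 to 5029 ± 267 and 10851 ± 62.5. Of 21 aminoacyl-tRNA synthetases, 8 were lower and 0 higher, and of 18 serine, asparagine and one-carbon genes 11 were lower and 1 was higher. *Atf4*, the transcription factor of the amino acid response, fell from 9011 ± 488 to 3947 ± 143.3 and the amino acid transporter *Slc7a5* from 4209 ± 132.2 to 1113 ± 31.4. Of 22 glycolysis genes, 9 were lower and 3 higher. *Gapdh* fell from 249284 ± 5545 to 94604 ± 7622 and *Eno1* from 137304 ± 1399 to 59699 ± 5765, *Pkm* was at 103675 ± 1394 and 108723 ± 6850.3 without a call, and *Hk2* rose from 4283 ± 105.6 to 9766 ± 1651.

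Other metabolic lists lay closer to the background. Among 28 nuclear-encoded respiratory chain genes 5 were lower and 0 higher, among 13 mitochondrially encoded ones 2 and 1, among 24 cholesterol genes 7 and 4, and among 28 lysosomal genes 6 and 5. *Atp5a1*, an ATP synthase subunit, fell from 13474 ± 103.1 to 7959 ± 147.4, *Scd2*, a fatty acid desaturase, rose from 5282 ± 182.8 to 13682 ± 911, and the protease *Ctsl* (cathepsin L) fell from 6426 ± 107.5 to 1623 ± 59.7. Leukotriene and prostaglandin genes numbered 3 higher and 3 lower of 15. *Alox5*, which starts leukotriene synthesis, rose from 2281 ± 29.2 to 3992 ± 89.9, and *Ptgs2* (COX-2) fell from 508 ± 35.03 to 70.6 ± 4.06. Of 14 antigen presentation genes, 3 were higher and 2 lower. The class I chain *H2-K1* was at 16363 ± 86.9 and 16304 ± 1534, and the class II genes *H2-Aa*, *H2-Ab1* and *H2-Eb1* had at most 3 reads in each library.

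In the BCL2 family, 6 of 16 were higher and 5 lower. The pro-apoptotic *Bcl2l11* (BIM) fell from 4614 ± 169.8 to 1689.5 ± 53.3 and *Bok* from 180.3 ± 15.005 to 22.4 ± 5.36, whereas the pro-apoptotic *Bmf* rose from 75.1 ± 14.3 to 697 ± 39.7. *Mcl1*, on which neutrophil survival depends, was at 33094 ± 2046 and 30601 ± 821, without a call.

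Interferon-stimulated genes were higher at the endpoint. Of 25 tested, 19 were higher and 2 lower, with a median log2 fold change of 2.25, or 1.88 with nearly absent genes at their ratio or bound. A filter on a mean normalized count of at least 10, which tests fewer of them, left 12 higher. *Ifit1*, which binds foreign RNA caps, had 5 reads in the 3 undifferentiated libraries and 188.9, 364 and 339 normalized counts at GCSF-OHT 168h. *Irf7*, which drives interferon genes, rose from 79.2 ± 5.09 to 388 ± 59.4 and *Usp18*, a brake on the interferon receptor, from 11.4 ± 2.66 to 141.1 ± 28.8. The summed level of the list was 3421 to 3682 in undifferentiated libraries and 8014 to 9142 at the endpoint. *Ifi204* fell from 104.4 ± 17.6 to 32.2 ± 11.8.

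Markers of the cell types the culture could hold were counted in the same way. Of 15 neutrophil markers 11 were higher and 1 was lower, with a summed level of 305070.0 to 311709 at the start and 826485 to 873402 at the end. Of 14 monocyte and macrophage markers tested, 4 were higher and 2 lower, with a summed level of 23390 to 26383 at the start and 20447 to 21044 at the end. *Ccr2*, a receptor of inflammatory monocytes, was at 23.6, 58.3 and 66.2 and then at 2790.0, 3109 and 3776, a log2 fold change of 6.12 (SE 0.15, adjusted p = 2.63e-68), and *Adgre1* (F4/80) rose from 8.65 ± 4.00 to 254.7 ± 81.8. *Ly6c2*, a surface antigen of inflammatory monocytes, fell from 22042 ± 1460.3 to 10491 ± 829.8, and *Mrc1*, the macrophage mannose receptor, from 3.71 ± 2.11 to 0.570 ± 0.988, a call that was lost with edgeR and with DESeq2. *Cd68* was at 2226 ± 138.6 and 1576 ± 79.99, without a call. *C1qa*, *C1qb*, *C1qc*, *Klf4*, *Marco* and *Fcgr1* had at most 3 reads in each library of both groups. Of 6 mast cell and basophil markers 2 were higher and 3 lower, with a median log2 fold change of -0.77 and a summed level of 4216 to 4446 at the start and 2651 to 2718 at the end. That median ranged from -0.80 to 0.76 over 16 other settings and omissions of a library, and its sign changed in 2 of them. The stem cell factor receptor *Kit* fell from 4053 ± 115.4 to 2259 ± 13.8, the mast cell protease *Mcpt8* from 185.8 ± 14.6 to 113.5 ± 6.59 and *Gata2* from 15.7 ± 2.52 to 3.02 ± 3.36. *Hdc*, which makes histamine, rose from 37.7 ± 14.9 to 286 ± 15.8, and *Cpa3*, *Fcer1a*, *Cma1* and *Tpsb2* had at most 3 reads. Of 5 erythroid markers 1 was higher and 2 lower, and the globins had at most 3 reads. The summed level of the erythroid list was 4037 to 4786 at the start and 7431 to 8089 at the end. Of 6 megakaryocyte markers 4 were lower, *Vwf* falling from 1299.9 ± 34.9 to 398 ± 54.9, with a summed level of 1772 to 1854 and then 514 to 641. Lymphoid markers numbered 3 higher and 3 lower of 7, dendritic cell markers 1 and 1 of 8 and eosinophil markers 1 and 2 of 5, all at low levels, with summed levels of at most 148 normalized counts in each library. Their part in the results was not tested.

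The endpoint was reached through the GCSF pre-treatment and then OHT, and each step was tested on its own. GCSF 0h against undifferentiated cells called 2261 genes higher and 3600 lower (13% and 20.7% of those tested), and GCSF-OHT 168h against GCSF 0h called 2110 higher and 2200 lower (12.1% and 12.6%). Both directions together made 33.7% and 24.8%. The comparisons share libraries, and their values are given side by side. The pre-treatment step joins the loss of IL3 with the gain of GCSF and 48 h of time. What is called the OHT step joins OHT with 168 h more in GCSF, renewed medium, another plate and detachment with trypsin. Within each step these cannot be told apart, so that the steps name intervals of the course and not causes. *Lyz2* was at 14173 ± 346, 60096 ± 3588 and 1237745 ± 24316 in undifferentiated, GCSF 0h and GCSF-OHT 168h cells, with log2 fold changes of 2.08 over the pre-treatment and 4.37 over the OHT step. *Pirb* changed by 1.82 and 7.79 and *Chil3* by -0.30 and 6.43, so that the larger part of these rises fell in the OHT step. *Cybb*, nearly absent at the start, was at 27.7, 74.4 and 37.3 in the GCSF 0h libraries, before OHT, and at 1531 ± 340.2 at the endpoint. The larger part of the rise came with the pre-treatment for *Hp*, at 1.77 and -0.05, and for *Cebpd*, at 2.13 and 0.71. Most of the fall of *Lmna* (-4.89 and 0.14), *Egr3* (-6.81 and -0.63) and *Tnfrsf9* (-4.84 and -1.72) came with the pre-treatment, whereas *Csn2* (-2.06 and -3.06) and *Ccn3* (-2.43 and -2.61) fell in both.

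*Elane* changed by 0.10 over the pre-treatment, without a call, and by -0.82 over the OHT step. Several other genes turned. *Ctsg* changed by 0.70 and -1.72, and *Prtn3*, not called between the ends, by 1.08 and -1.17. *Fth1* changed by -1.48 and 2.24, *Itgam*, the CD11b integrin chain, by -1.73 and 4.58, and *Mcl1* by -1.96 and 1.85. Division genes turned as a list. Of 42 DNA replication genes 38 were higher and 0 lower after the pre-treatment, and 0 higher and 22 lower over the OHT step, and of 34 mitosis genes 34 were higher and then 27 lower. *Mki67* was at 3545 ± 164.1, 11536 ± 698 and 8670.1 ± 409. Ribosome biogenesis factors counted 2 higher and 3 lower over the pre-treatment and 0 higher and 26 lower over the OHT step.

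**Figure D4:**
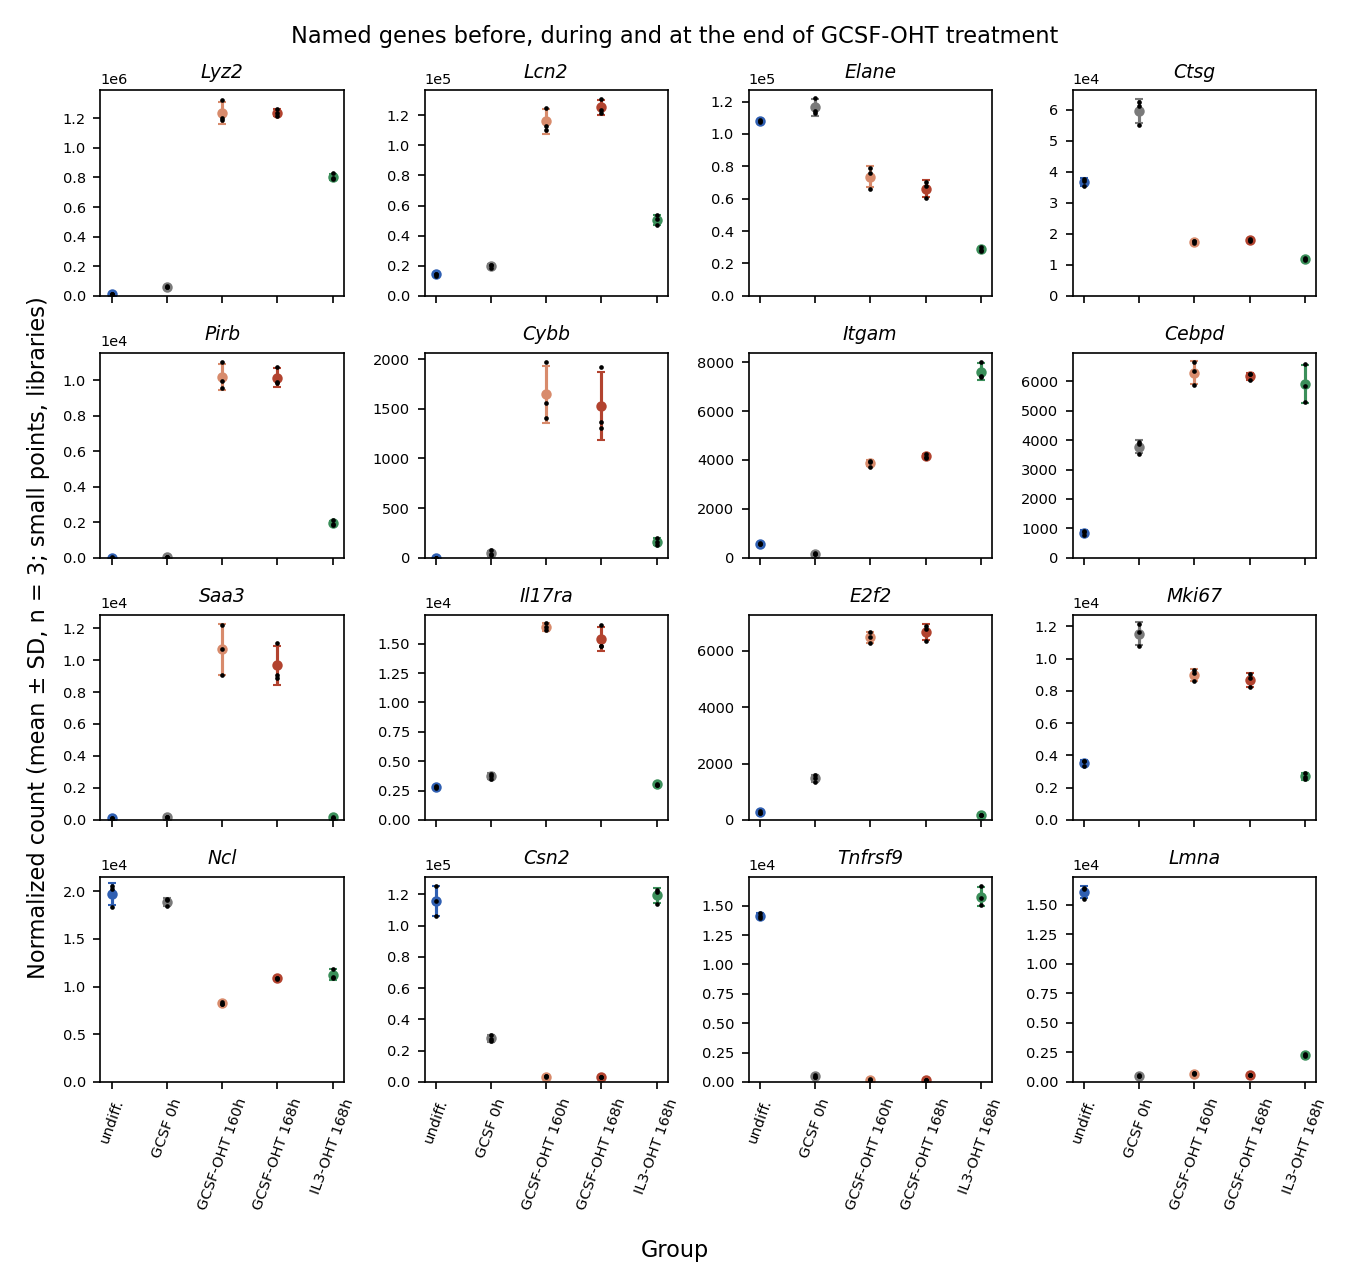
Normalized count (mean ± SD, n = 3, small points the libraries) of 16 genes in undifferentiated cells, GCSF 0h, GCSF-OHT 160h, GCSF-OHT 168h and IL3-OHT 168h, each axis from 0. *Ctsg* and *Mki67* are highest at GCSF 0h, *Saa3*, *Il17ra* and *E2f2* stand far higher in both GCSF-OHT groups than in the others, and the means of *Csn2* and *Tnfrsf9* are as high in IL3-OHT 168h as at the start.

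Few genes were called over the last 8 h. GCSF-OHT 168h against GCSF-OHT 160h called 130 genes higher and 261 lower (0.747% and 1.5% of those tested, 2.25% together). Glycolysis genes were among them, with 9 of 22 lower and 0 higher. *Gapdh* was at 159011, 131067 and 152548 at 160h and at 101807, 95383 and 86622 at 168h, a log2 fold change of -0.64 (SE 0.09, adjusted p = 2.04e-08), and *Eno1* at 104735, 86030.1 and 100856 and then 65063, 60429 and 53604, a log2 fold change of -0.70 (SE 0.10, adjusted p = 1.6e-08). In both genes the libraries of the later time point lay below those of the earlier one. The granule and receptor lists held at most 1 call each over these 8 h. For the primary granule list it was *Mpo*, lower at 168h than at 160h, with a log2 fold change of -0.72 (SE 0.10). *C4b* was at 4011, 6485 and 5356 at 160h and at 2550.0, 2806 and 5242 at 168h, where the third library stood apart from the other two, and *Adgre1* was lower at 168h, with a log2 fold change of -0.71 (SE 0.25), while *Fosb* was higher, with one of 1.45 (SE 0.18).

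Cells that reached 168h of OHT in IL3 differ from the endpoint in cytokine, in the pre-treatment and in the OHT dose, 200 nM against 100 nM. GCSF-OHT 168h against IL3-OHT 168h called 2096 genes higher and 2790 lower (12% and 16% of those tested, 28.1% together). *Saa3*, an acute-phase serum amyloid, was at 9067, 8855 and 11093 in GCSF and at 211.4, 126.3 and 118.8 in IL3, a log2 fold change of 6.02 (SE 0.15, adjusted p = 1.53e-65), and no library of one group came near the other. *E2f2* was at 6762, 6332 and 6878 and 169.8, 159.2 and 157.4, a log2 fold change of 5.35 (SE 0.08, adjusted p = 1.32e-86), *C4b*, a complement component, at 2550.0, 2806 and 5242 and 84.3, 94.2 and 75.4, and *Cacna1d*, a calcium channel subunit, at 341, 283 and 278 and 7.13, 9.15 and 10.4. On the other side, *Fgf23* was at 2.95, 6.52 and 0 in GCSF and 823, 883 and 876 in IL3, a log2 fold change of -8.12 (SE 0.45, adjusted p = 2.49e-33), *Tnfrsf9* at 148.6, 170.8 and 129.2 and 15686, 15025 and 16648, a log2 fold change of -6.72 (SE 0.14, adjusted p = 5.97e-75), and *Plet1*, a surface glycoprotein, at 1.97, 2.61 and 0.856 and 181.7, 193.1 and 217.7. The anti-apoptotic *Bcl2a1d* and *Bcl2a1a*, near-identical copies of one gene whose reads can be split between them, were at 2.41 ± 2.19 and 13.1 ± 2.96 in GCSF and 208.6 ± 27.3 and 198.3 ± 30.9 in IL3.

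Other genes that had risen from the start did not differ by call between the 2 cytokines. *Chil3* was at 119009.7 ± 3224 in GCSF and 116722 ± 11269 in IL3, *Cebpd* at 6172 ± 113.9 and 5907 ± 643 and *Pim1* at 19160.1 ± 535 and 18131 ± 1978, differences of 0.03 (SE 0.08), 0.07 (SE 0.10) and 0.08 (SE 0.08) on the log2 scale that were not called. *Lyz2*, at 804914 ± 21830.4 in IL3, was higher in GCSF by 0.62 (SE 0.06), and *Spi1*, at 5593 ± 163.8 in IL3, by 0.99 (SE 0.05). By list, 30 of 42 DNA replication and 32 of 34 mitosis genes were higher in GCSF than in IL3 and 0 lower. Of 25 interferon-stimulated genes, 21 were higher and 1 lower. Of 15 inhibitory and activating receptors, 11 were higher and 0 lower. Glycolysis genes (13 of 22) and cytokine feedback genes (11 of 15) were lower in GCSF, with 0 higher in either list, while ribosome biogenesis factors counted 0 higher and 1 lower.

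**Figure D5:**
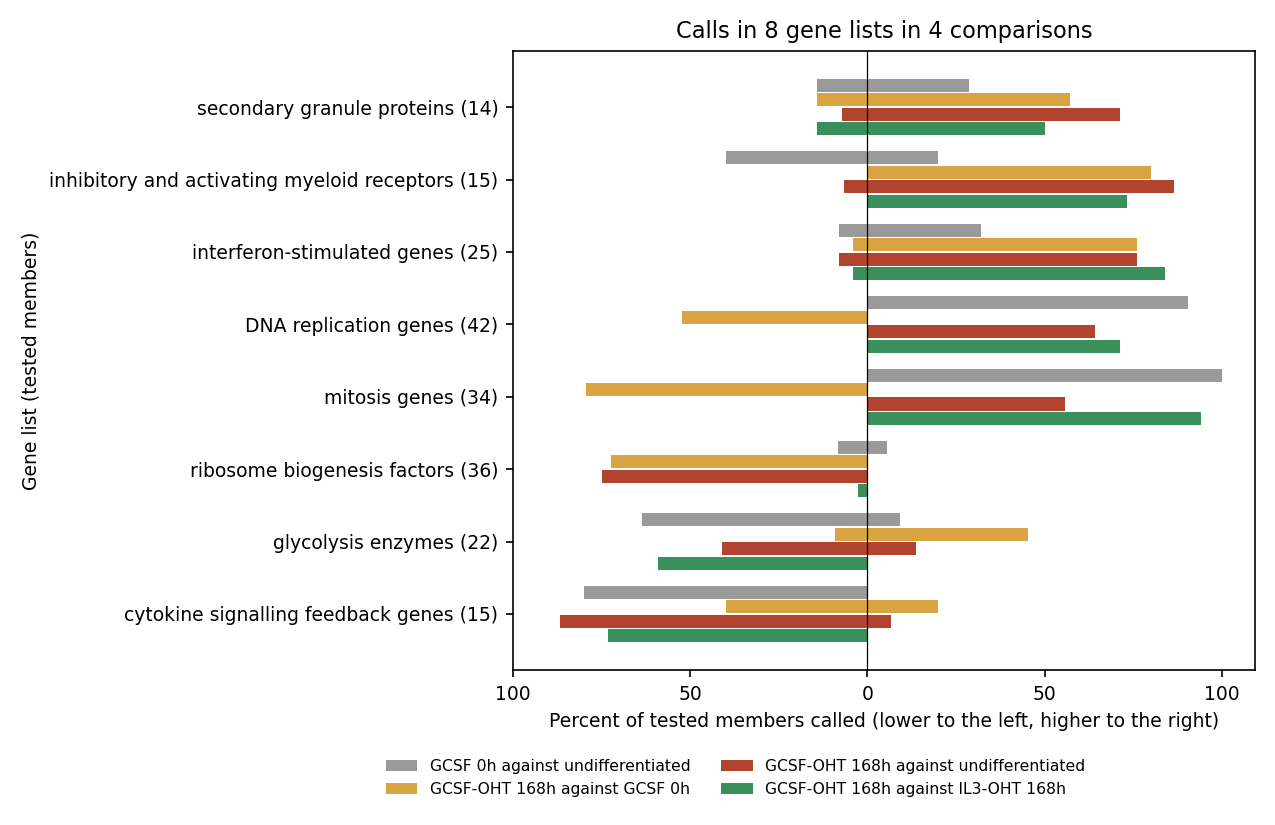
Percent of the tested members of 8 gene lists called higher (to the right) or lower (to the left) in 4 comparisons that share libraries. DNA replication and mitosis genes point right for the pre-treatment, left for the OHT step and right for the endpoint against the start, and ribosome biogenesis factors point left for the OHT step and the endpoint but hardly at all against IL3-OHT 168h.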

How the data were processed

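Gene-level values were deposited as normalized counts (a signal, not raw counts): the authors aligned reads to GRCm38 with Salmon and divided gene counts by DESeq2 size factors. Versions and the transcript-to-gene step are not given in the sources used here, nor is whether the libraries kept strand, so that a gene and an antisense partner cannot be told apart. 100% of the values were whole reads (tolerance 1e-09) divided by 1 factor per library, which gave back reads and depth. Values were tested as log2(normalized count + 1) with limma 3.58.1 (R 4.3.3; lmFit, eBayes with trend), with 1 mean per condition and time point over all groups except IL3-OHT 96h and 144h, which the study had excluded. The 17414 of 36255 genes at 5 or more in at least 1 library were kept, and p-values were two-sided and adjusted by Benjamini and Hochberg. The steps were tested on simulated counts for the groups compared here, with known changes only in genes well above the floor. That test did not cover changes in nearly absent genes or the fit over all groups.

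Named genes were the 12 highest and 12 lowest fold changes (mean of at least 100), the 10 largest rises and 10 largest falls in count, up to 5 members of each list, *Spi1*, the 5 highest and 5 lowest against IL3-OHT 168h, and 5 genes per direction with 3 reads or fewer in 1 group. A further 63 genes, and the motif TTCNNNGAA, were chosen after their values were seen. Those described are *Adgre1*, *Bmf*, *Camp*, *Cdkn1b*, *Cdkn2d*, *Cebpb*, *Cebpe*, *Csf2rb2*, *Csf3r*, *Cxcr2*, *Cyba*, *Fosb*, *Ikzf1*, *Irf1*, *Irf7*, *Lbr*, *Ltf*, *Ly6g*, *Mpo*, *Myb*, *Myc*, *Ncf4*, *Ngp*, *Osm*, *Retnlg*, *Siglece*, *Socs1*, *Socs2*, *Stat3*, *Syk*, *Tlr13*, *Tnf* and *Usp18*, and *C1rl*, *Slc28a2*, *Chil1*, *Scn4a* and *Enkur* in the closing section. Some genes are not reported here. The comparison, the gene lists and the markers were chosen with earlier results of these data known. For genes at 3 reads or fewer in 1 group, ratios of reads were given with exact 95% intervals, or against 3 reads per library where a group had 0. Alternatives were other pseudocounts, filters, scalings and groups, edgeR 4.0.16 and DESeq2 1.42.0 on the recovered reads, the replicate number as a block, and leaving out each library.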

Additional observations from a re-analysis of the deposited data

Results flagged for a closer look

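At 168h, 10 genes were singled out because GCSF-OHT and IL3-OHT cells differed by the largest log2 fold changes, tested directly with limma, among genes that had also changed from undifferentiated cells. *Saa3* (log2 fold change 6.02), *E2f2* (5.35), *C4b* (5.29), *Ifit1* (5.20) and *Cacna1d* (4.94) were higher in GCSF. *Fgf23* (-8.12), *Rpl30-ps9* (-7.01), *Tnfrsf9* (-6.72), *Bcl2a1d* (-6.24) and *Plet1* (-6.19) were lower in GCSF. Only genes called in this contrast could be chosen, so that each adjusted p was below the threshold by selection. In each gene the 3 libraries of one cytokine lay outside the range of the other. The choice of the largest fold changes largely fixes this too, and it is a description only. The pseudogene *Rpl30-ps9* was at 0, 0 and 19.7 in GCSF and 512, 312 and 275 in IL3 and shares sequence with its parent gene. The cytokine, the pre-treatment and the OHT dose cannot be told apart in this contrast.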

How the results depend on the processing

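Over 10 other settings and 6 omissions of a library, genes higher at GCSF-OHT 168h than at the start numbered 2447 to 2995 and genes lower 2841 to 4324. The number lower thus moved more between settings than the number higher. Without one library at a time the counts were 2635 to 2674 and 3813 to 4036, for GCSF-OHT against IL3-OHT at 168h 2011 to 2108 and 2582 to 2751, for GCSF 0h against undifferentiated cells 2194 to 2255 and 3348 to 3526, for GCSF-OHT 168h against GCSF 0h 1979 to 2096 and 2098 to 2124, and for 168h against 160h no fewer than 90 and 190 to 314. DESeq2 on the recovered reads called 77 genes higher at 168h than at 160h, in place of 130; the cause was not tested. Of 267 named genes, 251 kept their call in the main comparison in all 16 settings. The others were *Bax*, *Bcl2a1d*, *Ccl5*, *Cd74*, *Cox4i1*, *Ear2*, *Epx*, *Gm10359*, *Mrc1*, *Prg2*, *Rpl30-ps9*, *Srebf2* and *mt-Atp8*, which lost it in at least 1 setting, and *Hpgd*, *Rps6-ps4* and *Xbp1*, which gained one. No direction reversed among called values. With the replicate number as a block, 2699 genes were higher and 4100 lower; same-numbered libraries of the 2 groups correlated at -0.0151 to 0.114 in their deviations, so that the numbers were not read as pairs. Over 9962 genes, the median log2 fold change was 0.106 with edgeR and 0.032 in the limma fit. Depth limits genes near 3 reads, which corresponded to 2.57 to 3.93 normalized counts.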

Other observations

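Further genes went between near absence and moderate levels and lay outside the gene lists. *C1rl*, a complement C1r-like protease, had 1 read in the 3 undifferentiated libraries together and 562 reads at GCSF-OHT 168h. *Slc28a2*, a nucleoside transporter, had 0 and 332 reads, and *Chil1*, a chitinase-like protein related to *Chil3*, had 5 and 313. In the other direction, *Scn4a*, a muscle sodium channel, had 281 reads at the start and 3 at the end, and *Enkur* had 293 and 2. Values of this size rest on few reads in one group and are given as counts only.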
